A study of Mus musculus with 12 samples.

Results

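The interferon regulatory factors (IRFs) were followed as 8 genes, Irf1, Irf2, Irf3, Irf4, Irf5, Irf7, Irf8 and Irf9, out of 56691 mouse genes in the count table. The genes were taken by symbol as members of the family, and all 8 passed the minimum of 30 reads summed over the 12 libraries. Each library came from 1 mouse and held splenic CD4+ T cells sorted as Nr4a3-Timer Blue+ Red+, the responders in which the Nr4a3 reporter had recently been active. All 12 mice were Tg4 Nr4a3-Tocky Il10-GFP animals, whose CD4+ T cells carry a transgenic receptor for a myelin basic protein peptide, and the study's methods give both sexes and a typical age of 6 to 8 weeks. Every mouse received 4 mg/kg of [4Y]-MBP, then 0.5 mg of antibody at 24 h, then 0.4 mg/kg of the peptide 30 min later, and the spleen was taken 12 h after that. The 4 groups of 3 mice received the rat isotype pool (isotype), anti-Lag3, anti-PD-L1 or both blocking antibodies together (co-blockade, CB). For the multiplexed sort each group was also stained with its own CD4 fluorophore, so that this label and the treatment cannot be told apart. As models, all groups share a single transgenic receptor, and the sort removed cells without the Timer signal from each group alike.

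IRFs are transcription factors that share a DNA-binding domain for GAAA-containing elements. IRF4 and IRF8 are the lymphoid members. In T cells IRF4 is an immediate product of antigen receptor signalling and binds with BATF and JUN proteins or with ETS partners, and IRF8 is a related member best known in myeloid and B cells. IRF1 is induced by interferon gamma, IRF2 binds the same elements and mostly counters it, IRF9 is part of the ISGF3 complex downstream of the type I interferon receptor, IRF7 is an interferon-induced amplifier of type I interferon genes, and IRF3 and IRF5 are activated after transcription by kinases downstream of nucleic acid sensors and Toll-like receptors.

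The depth was between 16449370 and 22151025 reads on mouse genes per library (median 19176439). Levels are given as counts per 1000000 reads on TMM-scaled library sizes (CPM). A count of 3 reads, the limit that a count of 0 allows, stood for at most 0.190 CPM. Libraries came from the 3′ end of mRNA without molecular identifiers, so limits of this kind cover counting error only. A single unnamed gene, ENSMUSG00000119584, took 14.3 to 21.9% of the reads of a library. The cells expressed the markers of the label: 8 of 8 CD4 T cell markers had reads, with a summed level between 2619 and 3061 CPM. In CB that sum lay between 2619 and 2670 CPM against 2859 to 2998 CPM in isotype. Of the 8 markers, 2 were lower in CB at an adjusted p under 0.05 (edgeR) and 0 were higher. Among all genes tested, 1.96% were lower and 2.33% higher.

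Start regions of 4 members are shown first: Irf4 and Irf8, which were both higher in CB than in isotype, and Irf1 and Irf2, which bind the same elements with opposed roles and were not called. The 250 bases before the RefSeq transcription start (build GRCm38.p6, sense strand, 5′ to 3′) are given, with matches to 4 motifs in capitals. The motifs were the interferon gamma activation site (GAS, TTCNNNGAA), the core of the interferon-stimulated response element (ISRE, GAAA, any 2 bases and GAAA), AP-1 (TGANTCA) and the NF-kB consensus, all searched on both strands. No 2 matches overlapped in these windows.
Irf8 (chr8:120736108-120736357, plus strand): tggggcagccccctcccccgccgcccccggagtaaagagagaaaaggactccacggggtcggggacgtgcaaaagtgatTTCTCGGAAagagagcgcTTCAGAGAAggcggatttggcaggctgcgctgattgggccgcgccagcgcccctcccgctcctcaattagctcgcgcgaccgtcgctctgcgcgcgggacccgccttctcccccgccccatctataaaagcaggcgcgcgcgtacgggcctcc
Irf4 (chr13:30748983-30749232, plus strand): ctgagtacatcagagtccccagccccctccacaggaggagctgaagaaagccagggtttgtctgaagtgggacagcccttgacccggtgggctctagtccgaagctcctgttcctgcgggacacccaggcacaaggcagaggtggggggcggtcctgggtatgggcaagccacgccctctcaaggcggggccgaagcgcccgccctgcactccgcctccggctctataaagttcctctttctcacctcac
Irf1 (chr11:53769764-53770013, plus strand): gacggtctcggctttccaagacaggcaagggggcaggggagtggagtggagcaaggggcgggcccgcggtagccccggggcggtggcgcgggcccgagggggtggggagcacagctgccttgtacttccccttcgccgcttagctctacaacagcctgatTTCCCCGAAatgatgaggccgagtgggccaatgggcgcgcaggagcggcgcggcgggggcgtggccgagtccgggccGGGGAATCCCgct
Irf2 (chr8:46739495-46739744, plus strand): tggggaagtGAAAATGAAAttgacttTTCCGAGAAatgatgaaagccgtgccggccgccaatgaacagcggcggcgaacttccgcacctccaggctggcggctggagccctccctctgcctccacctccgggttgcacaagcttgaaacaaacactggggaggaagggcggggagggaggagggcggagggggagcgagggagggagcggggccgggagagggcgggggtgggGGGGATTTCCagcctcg
The Irf8 window held a pair of GAS matches, TTCTCGGAA at 171 to 163 bases and TTCAGAGAA at 153 to 145 bases before the start. The Irf4 window held none of the 4 motifs. The Irf1 window held the GAS match TTCCCCGAA at 90 to 82 bases and the NF-kB match GGGGAATCCC at 13 to 4 bases before the start. The Irf2 window held the ISRE core match GAAAATGAAA at 241 to 232 bases, the GAS match TTCCGAGAA at 224 to 216 bases and the NF-kB match GGGGATTTCC at 17 to 8 bases before the start. All 8 members had an entry, with 11 windows between them, and the windows of Irf3, Irf5, Irf7 and Irf9, like the second windows of Irf1 and Irf8, held no match. Among all 32851 windows of this length, 7.02% held a GAS match, 2.98% an ISRE core, 6.75% an AP-1 match and 7.25% an NF-kB match. These are matches of letters in short windows, and binding was not measured.

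Irf8 (ENSMUSG00000041515, chr8:120736358-120756694, plus strand, GRCm38) showed the largest difference of the 8 members between CB and isotype. Its level was 62.5, 72.2 and 60.1 CPM in the isotype libraries and 172, 104 and 145 CPM in the CB libraries. The lowest CB library lay above the highest isotype library. The group means were 64.9 ± 6.42 CPM in isotype and 141 ± 34.4 CPM in CB (SD, n = 3 each), a 2.16-fold difference (95% interval 1.73 to 2.71). On the log2 scale the difference was 1.11 (SE 0.16, adjusted p = 6.84e-05, edgeR quasi-likelihood test with Benjamini-Hochberg adjustment over 15138 genes).

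Irf4 (ENSMUSG00000021356, chr13:30749226-30766976, plus strand) was the only other member to pass the test between CB and isotype. Its level was 70.7, 75.6 and 53.3 CPM in isotype and 149, 86.0 and 107 CPM in CB, so that these groups also did not overlap. The CB mean was 114 ± 32.3 CPM against 66.5 ± 11.7 CPM in isotype (SD, n = 3 each), a 1.72-fold difference (1.32 to 2.24). The log2 fold change was 0.78 (SE 0.19, adjusted p = 0.0122, edgeR). The call rested on single libraries: without isotype replicate 3 it was 0.64 (adjusted p = 0.0810) and without CB replicate 1 it was 0.54 (adjusted p = 0.148, edgeR). Irf8 kept its call without any of the 12 libraries, at log2 fold changes between 0.94 and 1.29.

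Thus 2 of 8 members rose between CB and isotype and none fell, where 2.33% of all 15138 genes tested were called higher, 1.96% lower and 4.29% in either direction. The median log2 fold change of the 8 members was 0.19, beside 0 for all genes tested. Complete separation of the CB above the isotype libraries, seen in Irf4 and Irf8, was found in 10.4% of all genes. In bulk RNA, a larger share of cells that express a gene cannot be told apart from more RNA per cell.

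**Figure D1:**
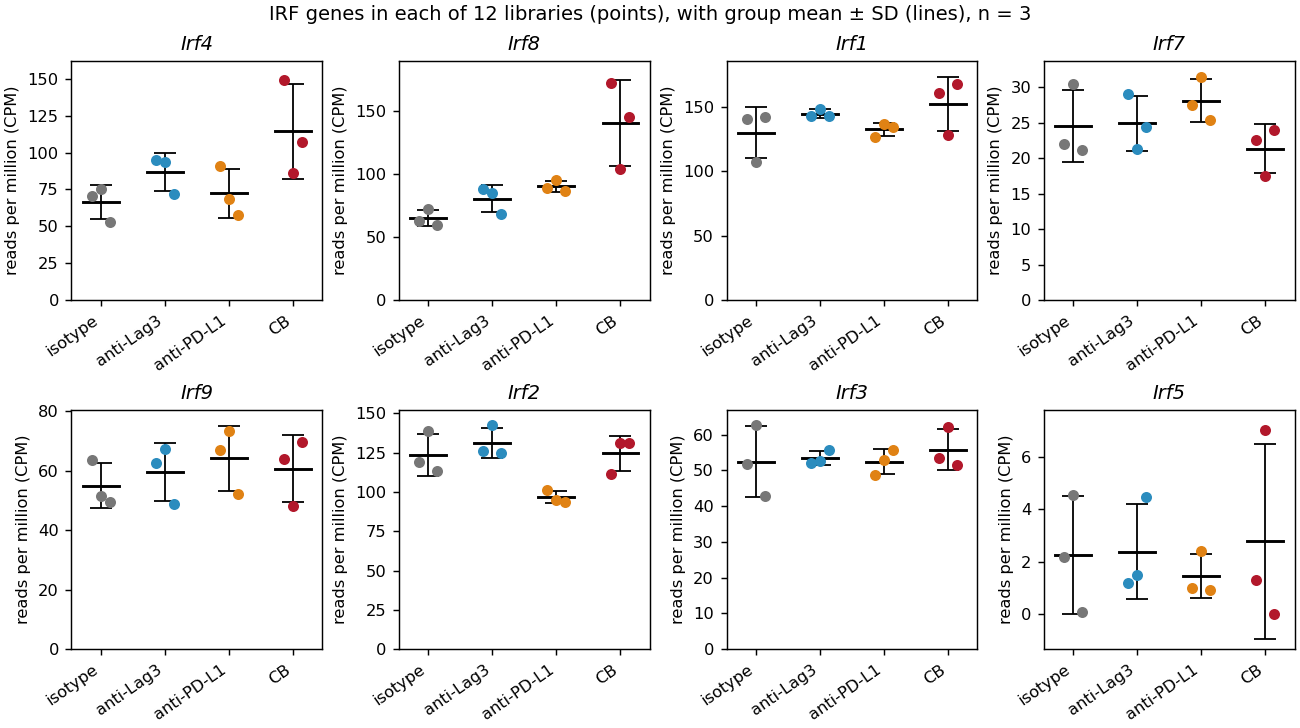
Level of each IRF gene (vertical axes, CPM, from 0 or just below) in the 4 groups. Points are the 3 libraries of a group in label order, wide lines are group means and capped lines are ± 1 SD. Irf8 in CB (104 to 172 CPM) lies above all 9 other libraries, and Irf2 in anti-PD-L1 (93.9 to 101 CPM) lies below all 9 others. The share of all genes with such a separation from all 9 others was not counted. The error bars of Irf5 reach below 0 because its counts are few.

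Between the single antibodies and isotype no member passed the test. Against isotype, anti-PD-L1 gave 5 called genes (0.0330% of those tested). Anti-Lag3 gave 0 (0%), where 788 genes had an unadjusted p under 0.05 in edgeR and DESeq2 called 10. Irf8 was at 89.2, 95.3 and 86.9 CPM in anti-PD-L1, with every library above every isotype library, which was so in 5.34% of all genes. Its log2 fold change was 0.48 (SE 0.16, 95% interval 0.16 to 0.80), with an unadjusted p of 0.00498 and an adjusted p of 0.402 (edgeR). In anti-Lag3 Irf8 was at 88.1, 85.2 and 68.4 CPM, which overlapped isotype, and the log2 fold change was 0.31 (−0.01 to 0.63, adjusted p = 0.805, edgeR). Irf4 was at 95.05, 93.9 and 72.1 CPM in anti-Lag3 and at 90.6, 68.7 and 58.0 CPM in anti-PD-L1, overlapping isotype in both. The Irf4 log2 fold changes were 0.39 (0.00 to 0.77, adjusted p = 0.805) and 0.12 (−0.26 to 0.51, adjusted p = 0.942, edgeR).

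The comparison of CB with each single antibody asks what the second antibody adds. Against anti-Lag3, 1 of 8 members was called, which was Irf8, 1.74-fold higher in CB (1.40 to 2.18). The log2 fold change was 0.80 (SE 0.16, adjusted p = 0.00907, edgeR), in a comparison where 0.390% of genes were called higher and 0.694% in either direction. All 3 CB libraries lay above all anti-Lag3 libraries, as in 7.68% of genes. This call was lost without anti-Lag3 replicate 3 (adjusted p = 0.0845), CB replicate 1 (adjusted p = 0.110) or CB replicate 3 (adjusted p = 0.0566, edgeR). Irf4 was 1.31-fold higher in CB than in anti-Lag3 (1.01 to 1.71, adjusted p = 0.513, edgeR), and the groups overlapped.

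Against anti-PD-L1, 0 of 8 members were called by edgeR, beside 0.370% of all genes. There 3 members had an unadjusted p under 0.05, and DESeq2 called 1, Irf8 (adjusted p = 0.0211). Without the filter on low counts, edgeR called Irf4 and Irf8 (adjusted p = 0.00504 and 0.00514). With the replicate number of the labels added to the fit, edgeR called both as well (adjusted p = 0.0156 and 0.0225). That fit called 137 genes in all against 56, and the labels do not say whether the numbers pair libraries. Irf8 was 1.55-fold higher in CB (1.24 to 1.94), at a log2 fold change of 0.64 (SE 0.16, adjusted p = 0.0741, edgeR), with no overlap between the groups. Such a separation with CB above anti-PD-L1 was found in 6.94% of genes. Leaving out CB replicate 2, the CB library with the lowest Irf8, raises the CB mean by the choice of library. The log2 fold change was then 0.81 (adjusted p = 0.0183, edgeR). This was the only fit with 1 library left out that called Irf8 in this comparison. Irf4 was 1.58-fold higher (1.21 to 2.06, adjusted p = 0.148, edgeR), and the lowest CB library, at 86.0 CPM, was under the highest anti-PD-L1 library.

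Ordered by group mean, Irf8 was lowest in isotype (64.9 CPM), then 80.6 CPM in anti-Lag3, 90.5 CPM in anti-PD-L1 and 141 CPM in CB. For Irf4 the single antibodies changed places, with 66.5 CPM in isotype, 72.4 CPM in anti-PD-L1, 87.0 CPM in anti-Lag3 and 114 CPM in CB. No neighbouring pair in either order passed the test in edgeR. Irf1 was the third member with both single antibodies between isotype and CB, an order that 12.9% of all genes showed rising and 12.6% falling. The interaction, CB minus both single antibodies plus isotype, was 0.32 for Irf8 (−0.13 to 0.78) and 0.27 for Irf4 (−0.27 to 0.81) on the log2 scale. Neither passed the test (adjusted p = 0.948 and 1), nor did any other gene (0%), with 898 genes at an unadjusted p under 0.05 in edgeR and 5 called by DESeq2. The comparisons with isotype share the isotype libraries, and those with CB share the CB libraries, so they are not independent of each other.

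**Figure D2:**
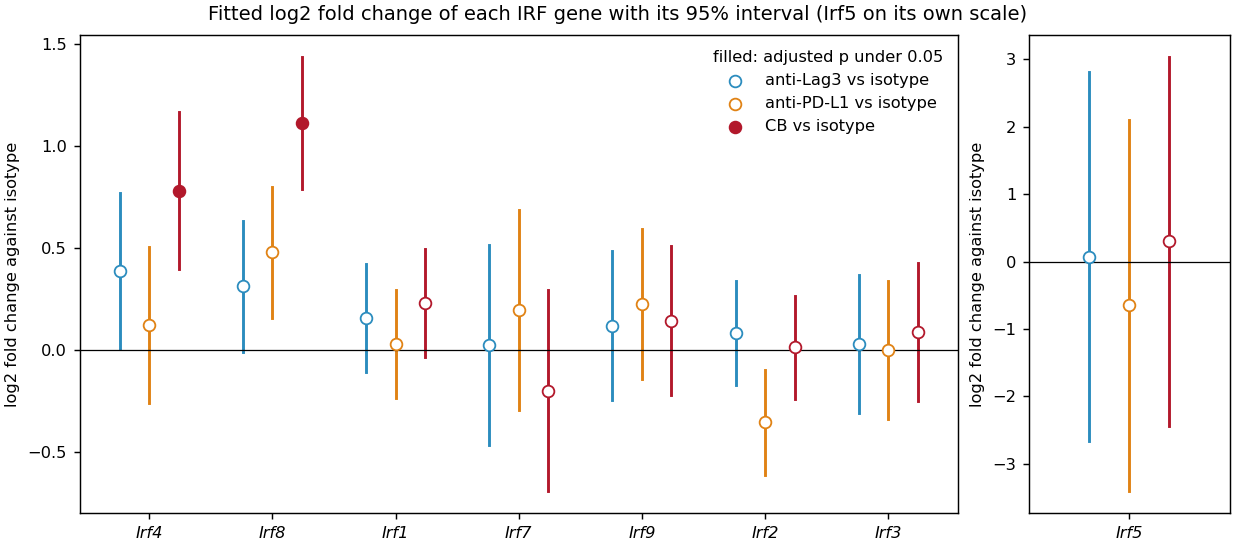
Log2 fold change against isotype (vertical axes) of each IRF gene for anti-Lag3, anti-PD-L1 and CB, with the 95% interval as a line. Filled symbols pass an adjusted p of 0.05 in edgeR, and Irf5 has its own axis because its intervals span several log2 units. The filled symbols are Irf4 (0.78) and Irf8 (1.11) in CB, and the interval of Irf2 in anti-PD-L1 (−0.61 to −0.10) lies under 0.

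Irf1 (ENSMUSG00000018899, chr11:53770014-53778374, plus strand), the interferon gamma-induced activator, did not pass the test in any comparison. Its level was 141, 107 and 142 CPM in isotype and 161, 128 and 168 CPM in CB. The groups overlapped, and the log2 fold change was 0.23 (−0.03 to 0.49, adjusted p = 0.400, edgeR). The anti-Lag3 libraries, at 143, 149 and 143 CPM, lay just above the highest isotype library, as was so in 5.25% of genes, at a log2 fold change of 0.16 (adjusted p = 0.929, edgeR). They also lay above the anti-PD-L1 libraries, at 127, 137 and 134 CPM (log2 fold change of anti-PD-L1 against anti-Lag3 −0.13, adjusted p = 0.979), a separation found in 4.69% of genes.

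Irf7 (ENSMUSG00000025498, chr7:141262706-141266481, minus strand), the amplifier of type I interferon genes, was at 21.9, 30.4 and 21.2 CPM in isotype and at 22.6, 17.4 and 23.9 CPM in CB. The groups overlapped (log2 fold change −0.20, interval −0.69 to 0.29, adjusted p = 0.802, edgeR). All CB libraries lay under the anti-PD-L1 libraries, at 27.5, 31.3 and 25.4 CPM, as in 5.75% of genes. That difference was −0.40 (−0.89 to 0.09, adjusted p = 0.575, edgeR). Its sign was opposite to that of Irf4 and Irf8 in the same comparison. Irf7 overlaps the last exon of Phrf1 on the other strand by 45 bases, and Phrf1 had 21524 reads in all against 5686 for Irf7. The strand setting of the counting is not given in the sources used here, so reads of the pair in the shared bases may not be told apart.

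Irf9 (ENSMUSG00000002325, chr14:55603571-55610030, plus strand), the DNA-binding subunit of ISGF3, was at 63.7, 51.6 and 49.6 CPM in isotype and at 64.1, 48.2 and 69.8 CPM in CB. All 4 groups overlapped, with means between 55.0 and 64.3 CPM. Between CB and isotype its log2 fold change was 0.14 (−0.22 to 0.51, adjusted p = 0.815, edgeR). Irf9 shares 123 bases with Rnf31 on the same strand, and Rnf31 had 1185 reads against 13905 for Irf9.

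Irf2 (ENSMUSG00000031627, chr8:46739732-46847458, plus strand), which competes with IRF1 for its elements, had another pattern, with its lowest values in anti-PD-L1. Its level was 101, 94.8 and 93.9 CPM there. It was 119, 139 and 113 CPM in isotype, 126, 142 and 125 CPM in anti-Lag3 and 112, 131 and 131 CPM in CB. The anti-PD-L1 libraries did not overlap any other group. The log2 fold change against isotype was −0.36 (−0.61 to −0.10, unadjusted p = 0.00818, adjusted p = 0.462, edgeR). Against anti-Lag3 it was −0.44 (adjusted p = 0.802), and CB was above anti-PD-L1 by 0.37 (adjusted p = 0.281, edgeR). None of the 3 passed the test. Separations in these directions, each counted by itself, were found in 6.46%, 4.69% and 6.94% of all genes. Between CB and isotype Irf2 differed by 0.01 on the log2 scale (−0.24 to 0.27). Of the 3 genes of the IRF2-binding corepressors, Irf2bp1, Irf2bp2 and Irf2bpl, none was called in that comparison, and the gene with the smallest adjusted p was Irf2bp1 (log2 fold change 0.44, adjusted p = 0.348, edgeR).

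Irf3 (ENSMUSG00000003184, chr7:44997648-45002848, plus strand), a sensor-activated member, had group means between 52.5 and 55.8 CPM. Its libraries ranged from 42.9 to 62.6 CPM in isotype, which spanned those of all other groups. Between CB and isotype its log2 fold change was 0.09 (−0.25 to 0.43, adjusted p = 0.912, edgeR). Irf3 overlaps Bcl2l12 on the other strand by 88 exonic bases, and Bcl2l12 had 1564 reads against 12428 for Irf3.

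Irf5 (ENSMUSG00000029771, chr6:29526625-29541871, plus strand), best known in myeloid cells and B cells, was counted with 505 reads in all. There were 43, 72 and 1 reads in the isotype libraries, 23, 30 and 85 in anti-Lag3, 17, 43 and 20 in anti-PD-L1 and 25, 146 and 0 in CB. The spread within groups covered the spread between them, and CB differed from isotype by 0.30 on the log2 scale (−2.44 to 3.04). No difference within that interval could be shown. The end of Irf5 overlaps the last exon of Tnpo3 on the other strand, by 411 exonic bases in all, and Tnpo3 had 49668 reads.

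Within each library, Irf4 and Irf8 were set against the interferon-linked members Irf1, Irf7 and Irf9, which removes any scaling shared by the genes of a library. The mean log2 level of Irf4 and Irf8 minus that of Irf1, Irf7 and Irf9 was 0.19, 0.42 and 0.092 in isotype. It was 0.52, 0.58 and 0.34 in anti-Lag3, 0.54, 0.25 and 0.34 in anti-PD-L1 and 1.38, 0.99 and 0.93 in CB. Every CB library lay above all 9 others, and the isotype libraries overlapped both single antibodies. The grouping was chosen with the results of Irf4 and Irf8 known, so these values are a description with no test. The zero of this scale depends on how well each 3′ end is counted, and only its shifts between groups are read.

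Irf8 was also set against Irf4 within each library. Between anti-PD-L1 and anti-Lag3 neither gene was called. The log2 fold change there was 0.17 for Irf8 (adjusted p = 0.964) and −0.27 for Irf4 (adjusted p = 0.850, edgeR). Irf8 minus Irf4 was −0.18, −0.066 and 0.17 in isotype and −0.11, −0.14 and −0.077 in anti-Lag3 on the log2 scale. It was −0.022, 0.47 and 0.58 in anti-PD-L1 and 0.21, 0.27 and 0.44 in CB. All CB libraries and 2 of 3 anti-PD-L1 libraries lay above all isotype and anti-Lag3 libraries, again as a description with no test.

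**Figure D3:**
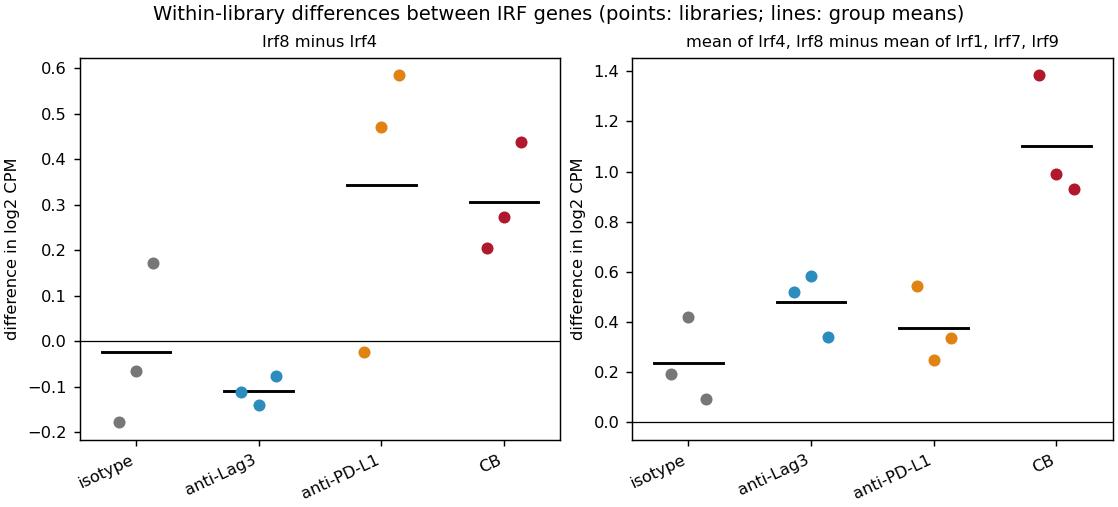
Differences in log2 CPM between IRF genes within each library (vertical axes), for Irf8 minus Irf4 and for the mean of Irf4 and Irf8 minus the mean of Irf1, Irf7 and Irf9, by group. Points are libraries and lines are group means. In the second panel the CB libraries lie between 0.93 and 1.38 and all others between 0.092 and 0.58.

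By the mean absolute difference between log2 levels centred on each gene's own mean over the 12 libraries, the genes most like Irf4 were Akap1 (0.10), Rcl1 (0.14), Pum3 (0.14), Pip5k1a (0.17) and Xpo5 (0.17). Those most like Irf8 were Snhg5 (0.11), Snhg1 (0.13), Nolc1 (0.14), Pim2 (0.14) and Rps19bp1 (0.15). Snhg1 and Snhg5 are host transcripts of small nucleolar RNAs, Nolc1 encodes a nucleolar phosphoprotein and Pim2 a serine/threonine kinase. For Irf1 the nearest were Tstd2, Eed, Mindy3, Sart3 and Them6 (0.07 to 0.09), and for Irf7 they were Flywch1, Nfatc2, Shc1, Trafd1 and Mettl17 (0.10 to 0.11). Irf4 and Irf8 had no gene among these in common. Members whose levels vary little have small distances to many genes, so the distances are not set against each other.

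Genes known to act with or after the IRFs were then counted between CB and isotype, to be read against the 2.33% of all genes called higher and the 1.96% called lower. Among 15 partner factors of IRF4 and IRF8 (BATF, JUN, ETS, Ikaros, STAT3 and NFAT proteins), 0 were higher and 1 was lower, Ets1 (log2 fold change −0.58, adjusted p = 0.00203, edgeR), which encodes an ETS-family factor. The median over the list was −0.01. Of 10 inducers and modifiers of IRF4, 1 was lower, Nfkb1 (−0.89, adjusted p = 0.00203), and the median was −0.13. Nfkb1, which encodes the NF-kB subunit p105/p50, was at 53.1 ± 6.37 CPM in CB against 98.3 ± 8.44 CPM in isotype (SD, n = 3 each). Of the 10 genes, 4 had a log2 fold change above 0. The activity of their proteins was not measured, and their part in the level of Irf4 was not tested.

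Of 12 helper genes known to depend on IRF4, 11 were tested, of which 3 were higher and 1 was lower, with a median of 0.65. The median did not move when Il17a, which had no reads in isotype, was set at its bound. Il21, the cytokine of follicular helper cells, rose by 2.16 (adjusted p = 0.00203), Maf by 0.66 (adjusted p = 0.00363) and Il2ra by 0.99 (adjusted p = 0.0288, edgeR). Gata3, the factor of Th2 cells, fell by 0.95 (adjusted p = 8.42e-04). The Il2ra call was lost without isotype replicate 1, CB replicate 2 or CB replicate 3 (adjusted p up to 0.294, edgeR). Il21 is also known to depend on other factors, and the helper genes include genes that the study itself picked from these libraries, so their direction is not independent evidence about Irf4.

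On the interferon side, ligand transcripts were nearly absent. Of 20 interferon genes, 19 had 0 reads in every library, type I genes among them. The exception was Ifng, with 642 reads in all and means of 3.20 ± 2.54 CPM in isotype and 3.79 ± 1.63 CPM in CB (SD, n = 3 each). Its log2 fold change was 0.25 (adjusted p = 0.990, edgeR). Of 14 genes for interferon receptors, JAKs, STATs and their inhibitors, 1 was called, and between 0 and 3 over the alternatives. This was Ifnar1, a chain of the type I receptor, which was lower by 0.88 on the log2 scale (−0.88, adjusted p = 0.0332, edgeR). That call was lost in 5 of 12 fits with 1 library left out, those without any 1 of the isotype replicates, CB replicate 1 or CB replicate 3 (adjusted p up to 0.149). Of 15 tested adaptors and kinases upstream of IRF3, IRF5 and IRF7, none was called, with a median of −0.01 (1 was lower without isotype replicate 3 or CB replicate 3), and the smallest adjusted p was that of Ikbke (log2 fold change −0.66, adjusted p = 0.111, edgeR).

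Among target genes, 3 of 30 genes of the ISGF3 and IRF7 list (type I interferon) were higher and 0 lower, with a median of 0.35. They were Isg15 (1.30, adjusted p = 1.94e-04), Bst2 (1.13, adjusted p = 0.00163) and Ifi35 (0.83, adjusted p = 0.0125, edgeR). Isg15 encodes a ubiquitin-like modifier and Bst2 the antiviral protein tetherin. Of 29 genes of the interferon gamma target list, 5 were higher and 1 lower, with a median of 0.30. The higher genes encode interferon-inducible GTPases, namely Igtp (0.94), Gbp5 (1.74), Iigp1 (1.75), Gbp2 (1.44) and Ifi47 (0.63), with adjusted p from 1.43e-04 to 0.00962 (edgeR). The lower gene was Tap2, a peptide transporter subunit (−0.59, adjusted p = 0.0480). It lost its call in 6 of 12 fits with 1 library left out (without isotype replicates 1 or 3, anti-Lag3 replicate 3, anti-PD-L1 replicate 2 or CB replicates 1 or 3, adjusted p up to 0.330). Ifi35 lost its call in 3 of 12 (without isotype replicates 2 or 3 or CB replicate 3) and Ifi47 in 2 of 12 (without isotype replicate 1 or CB replicate 3).

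Between CB and isotype, 8 of the 59 tested target genes were thus higher, where 2.33% of all genes were. Irf1, Irf7 and Irf9 were not called, at log2 fold changes of 0.23, −0.20 and 0.14. They are too few for a count of calls to be set against that share or against the target lists. In the single antibody groups none of these target genes was called. The type I list had a median of 0.34 in anti-PD-L1 and of 0.28 in anti-Lag3, and the interferon gamma list had medians of 0.16 and 0.14 there. The genes with the smallest adjusted p were Isg15 in the type I list (0.65 in anti-PD-L1, adjusted p = 0.344, and 0.80 in anti-Lag3, adjusted p = 0.554) and Igtp in the interferon gamma list (0.64, adjusted p = 0.117, and 0.69, adjusted p = 0.496, edgeR). The medians of all genes tested were 0.

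**Figure D4:**
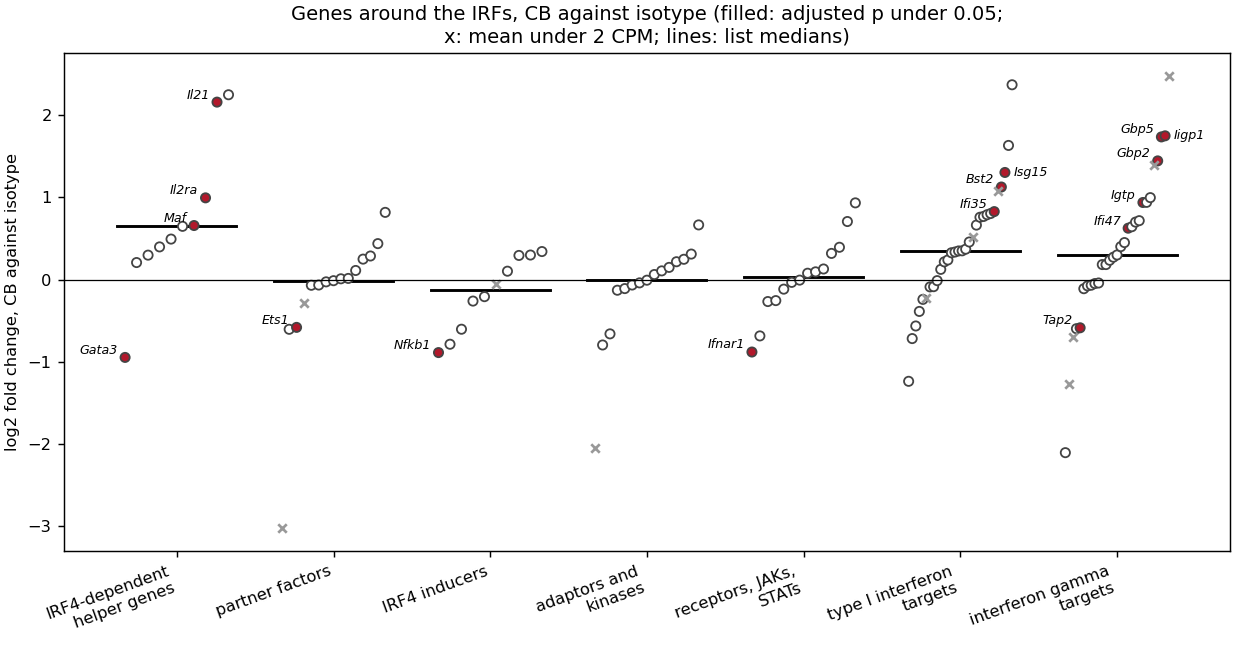
Log2 fold change between CB and isotype (vertical axis) of the genes in 7 lists around the IRFs. Each symbol is a gene, filled red where the adjusted p was under 0.05 in edgeR and drawn as a cross where its mean was under 2 CPM, and lines are list medians. Il17a, without reads in isotype, is left out. The named genes are the called ones, 8 higher in the last 2 lists and 3 in the first.

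Markers of other cells that express IRF8 were measured beside Irf8. Of 9 markers of conventional dendritic cells, 3 (Xcr1, Cd209a and Clec4a4) were at 0 in all libraries, and the sum of the list was between 0 and 1.36 CPM in CB against 0.755 to 2.34 CPM in isotype. Plasmacytoid dendritic cell markers summed to 13.6 to 21.1 CPM in CB and 16.6 to 31.1 CPM in isotype. B cell markers, of which 12 of 12 had reads, summed to 348 to 434 CPM in CB and 406 to 467 CPM in isotype, most of it from Ighm, while Cd79a had 71 reads over all libraries. Macrophage and monocyte markers summed to 59.5 to 70.7 CPM in CB and 67.9 to 77.5 CPM in isotype, most of it from Cst3, with Cd14 at 0. Irf8 was thus higher in CB while the sums of these 4 lists had group medians below those of isotype. Plasma cell markers, known to go with IRF4, summed to 35.5 to 45.4 CPM in CB and 24.4 to 43.7 CPM in isotype, so that the CB median of 44.1 CPM was above the isotype median of 28.3 CPM. Most of this came from Xbp1, Mzb1 was at 0, and none of the list was called. NK cell markers summed to 2.55 to 5.50 CPM in CB and 0.697 to 3.81 CPM in isotype, with medians of 4.34 and 2.72 CPM. Erythroid markers were lower, at 150 to 198 CPM in CB against 241 to 451 CPM in isotype. Of the 6 erythroid markers, 2 were called lower and 0 higher, beside 1.96% and 2.33% of all genes. The part of plasma cell, NK cell and erythroid RNA in the rises of Irf4 and Irf8 was not tested.

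The methods state that samples were multiplexed and sorted in batches with as many samples as there were groups. Each group had its own CD4 label, so a batch could hold every group, which the methods do not state outright. The paper attributes an axis of variation between these libraries, the principal component after the main one, largely to batch sorting. The batch of each library is not given in the sources used here, and the main fit does not model it. No within-batch value of Irf4 or Irf8 could thus be computed from the labels.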

How the data were processed

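3′ mRNA libraries of 12 mice were analysed, 3 per group. The authors trimmed reads with cutadapt 1.18, mapped them with STAR 2.6.1a to GRCm38 and counted uniquely mapped reads with featureCounts 1.6.4, and deposited these raw counts per gene. Their rlog table was not used. Strand setting and annotation release are not given in the sources used here. The 114 spike-in rows (0.719 to 1.29% of reads) were left out of library sizes. GENCODE names matched 52073 of 56691 genes. Counts were tested with edgeR 4.0.16 (TMM, quasi-likelihood, 1 fit of 4 group means) in R 4.3.3 over 15138 genes with at least 30 reads in sum. A gene was called at an adjusted p under 0.05, and SEs are the log2 fold change over the square root of F. DESeq2 1.42.0 was an alternative. CPM use TMM-scaled totals, and likeness of profiles used a prior count of 2 and genes with a mean of at least 100 reads. The named list genes were those called (up to 6 a list) or the one with the smallest adjusted p. The members and lists were chosen with earlier results of these data known. On simulated counts, the fit between CB and isotype recovered 52.5% of 200 changed genes with a mean of at least 30 reads. Of those changed 2-fold it recovered 50%, so a gene that was not called may still differ. Within each group, no 2 libraries agreed within sampling noise, and libraries of different groups were not compared in this way. Same-numbered libraries were not treated as pairs. Some genes are not reported here.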

Additional observations from a re-analysis of the deposited data

How the results depend on the processing

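The rise of Irf8 between CB and isotype was called in 9 of 9 alternatives and in 12 of 12 fits with 1 library left out, and that of Irf4 in 8 of 9 and 10 of 12. Between CB and isotype, 2 IRF genes were called, and 1 by the DESeq2 test against a log2 fold change of 0.2, where Irf4 had an adjusted p of 0.217. Leaving out 1 library gave 1 to 2. Between CB and anti-Lag3, 1 IRF gene was called, 0 by that DESeq2 test (Irf8, adjusted p = 0.171) and 0 to 1 with a library left out. Between CB and anti-PD-L1, 0 were called, 2 without a filter on low counts (Irf4 and Irf8, adjusted p = 0.00504 and 0.00514), 1 by the DESeq2 test against 0 and 0 to 1 with a library left out. The cause of these shifts was not tested. With the replicate block, which adds the replicate number of the labels to the fit, 2 IRF genes were called there (Irf4 and Irf8, adjusted p = 0.0156 and 0.0225), 137 genes in all against 56. The labels do not say whether the numbers pair libraries. Correlations of same-numbered libraries ran from −0.050 to 0.18 over 18 pairs, and 7 were above 0.1. In 11 of the 18 pairs the correlation was higher than with any other number. That was so in every pair numbered 1 (0.087 to 0.18, against at most 0.014 with another number). Pairs numbered 2 ran from −0.050 to 0.096 and those numbered 3 from 0.035 to 0.14. A batch shared by the libraries numbered 1 is thus not excluded, and the main fit does not model it.

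Differences near 0 changed sign. For Irf3, anti-PD-L1 against isotype was −0.0025 without a filter and −4.71e-04 with only the groups compared. For Irf5 the replicate block gave −0.034 (CB against isotype), −1.27 (CB against anti-Lag3) and −1.06 (interaction). With 1 library left out, the log2 fold changes of results that changed sign ranged as follows. Irf1 ranged from −0.00275 to 0.18 (CB against anti-Lag3), −0.092 to 0.095 (anti-PD-L1 against isotype) and −0.031 to 0.17 (interaction). Irf2 ranged from −0.11 to 1.39e-04 (CB against anti-Lag3) and −0.052 to 0.10 (CB against isotype). Irf3 ranged from −0.025 to 0.11 (CB against anti-Lag3), −0.040 to 0.24 (CB against isotype), −0.10 to 0.17 (anti-Lag3 against isotype), −0.075 to 0.023 (between single antibodies), −0.13 to 0.15 (anti-PD-L1 against isotype) and −0.087 to 0.19 (interaction). Irf4 ranged from −0.071 to 0.26 (anti-PD-L1 against isotype). Irf5 ranged from −1.85 to 1.06 (CB against anti-Lag3), −1.13 to 1.54 (CB against anti-PD-L1), −1.78 to 1.32 (CB against isotype), −0.77 to 1.09 (anti-Lag3 against isotype), −1.32 to 0.12 (between single antibodies), −1.24 to 0.37 (anti-PD-L1 against isotype) and −1.20 to 1.71 (interaction). Irf7 ranged from −0.10 to 0.21 (anti-Lag3 against isotype). Irf9 ranged from −0.10 to 0.17 (CB against anti-Lag3), −0.21 to 0.060 (CB against anti-PD-L1) and −0.019 to 0.24 (between single antibodies). None of these was called.

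The number of genes called in all moved by more than 1.5 times in several settings. Between CB and isotype it was 649, but 233 (DESeq2 against 0.2), 364 (edgeR against 0.2) and 394 to 705 with a library left out. Between CB and anti-Lag3 it was 105, but 252 (no filter), 284 (DESeq2), 41, 39, 208 (block) and 42 to 125. Between CB and anti-PD-L1 it was 56, but 150, 157, 16, 3 and 4 to 57, and 4 with only those groups. Between anti-PD-L1 and isotype it was 5, but 40, 56, 11, 2, 23, 0 to 10, and 3 with only those groups. Between anti-Lag3 and isotype it was 0, but 14, 10, 2, 0, 9 and 0 to 1. Between the single antibodies it was 0, but 2, 10, 8, 0, 0 and 0 to 1, and 1 with only those groups. For the interaction it was 0, but 10, 5, 2, 0, 4 and 0 to 2. The alternatives for the genes named beside the IRFs, which were chosen after seeing the data, changed no direction. Maf, Il2ra, Ifnar1, Ifi35, Ifi47 and Tap2 lost their calls in the DESeq2 test against 0.2 (adjusted p from 0.0822 to 0.538), Il2ra, Ifnar1 and Tap2 in the edgeR test against 0.2, and Il2ra and Tap2 with only the groups compared.

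With 3 mice per group, the 95% intervals of Irf7 and Irf5 are wide.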

Other observations

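Among the type I interferon targets, Ifit1 (chosen here after its values were seen) was at 10.4 ± 3.05 CPM in isotype, 23.6 ± 2.34 CPM in anti-Lag3, 19.9 ± 0.958 CPM in anti-PD-L1 and 16.4 ± 5.77 CPM in CB (SD, n = 3 each). It encodes an antiviral RNA-binding protein. Its libraries lay above isotype without overlap in anti-Lag3 (as in 5.25% of all genes) and in anti-PD-L1 (as in 5.34%), but overlapped it in CB, from 9.80 to 20.3 CPM in the latter. Its log2 fold changes against isotype were 1.19, 0.94 and 0.66, and none passed the test (adjusted p = 0.674, 0.402 and 0.299, edgeR). This differs from Irf4 and Irf8, whose highest mean was in CB. It also differs from Isg15, Bst2 and Ifi35, the called genes of the same list, whose highest mean was in CB too. Ifit1 was not alone in this order. Rtp4 was at 13.7 CPM in isotype, 24.5 in anti-Lag3, 24.4 in anti-PD-L1 and 16.2 in CB. Samhd1 was at 224, 283, 279 and 260 CPM in the same groups. The median interaction of the list was −0.35, with 6 of 30 genes above 0, beside 0.0016 for all genes. For Ifit1 it was −1.46 (unadjusted p = 0.00216, adjusted p = 0.804, edgeR). Single genes do not stand for the list, and the difference between these patterns and those of Irf4 and Irf8 was not tested.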
